A study of Oryctolagus cuniculus with 16 samples.

Results

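The genes described here are 7 cell-surface scavenger receptors, *MSR1*, *COLEC12*, *CD36*, *SCARB1*, *OLR1*, *STAB1* and *LRP1*, chosen by their gene symbols from the 20255 genes in the table of counts. Each symbol was found once, and all 7 genes passed the filter on low counts. Total RNA of the femoral head was sequenced from 5 Perthes and 3 control rabbits. The Perthes rabbits were immature, 8 weeks old, and had the femoral neck tied with a non-absorbable suture and the ligamentum teres cut, which interrupts the blood supply of the femoral head. The labels give the genotype of the Perthes group as Perthes' disease and that of the control group as WT, although the model is surgical. The time between surgery and sampling, and whether the controls had sham surgery, are not given in the sources used here.

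Scavenger receptors bind many unrelated ligands that carry negative charge or oxidized lipid, among them modified lipoproteins, dying cells, matrix fragments and microbes, and most of them carry the ligand into the cell. Macrophages that clear dead marrow and fat after bone loses its blood supply take up membranes and lipid through such receptors, store the lipid as droplets or export it, and can become foamy. The same receptors also serve other cells, for example fatty acid uptake in adipocytes, lipoprotein uptake in steroid-making cells and turnover of matrix proteins in stroma.

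The libraries held from 26757087 to 29461482 counts, so that 1 count was at most 0.0374 CPM (counts scaled to the library total and the TMM factors of edgeR), and the biological coefficient of variation was 0.361. Levels below are in CPM, which is not divided by gene length, so levels are compared between rabbits and not between genes. Fold changes, Perthes over control, and adjusted p-values come from the quasi-likelihood test of edgeR, adjusted by Benjamini-Hochberg over 15305 genes, and a gene is said to have risen or fallen where its adjusted p was below 0.05. The exact permutation tests of log2 CPM are two-sided over the 56 divisions of the rabbits into 5 and 3, and their smallest possible p is 0.0357. The labels number the rabbits but do not describe how they were drawn, so p-values measure the spread between these samples. Of the marker lists for tissue types, summed chondrocyte markers ranged from 32818 to 131859 CPM in Perthes and from 45605 to 62126 CPM in control rabbits, and skeletal muscle markers did not exceed 8.75 CPM in any rabbit. Perthes rabbit 4 had the highest chondrocyte sum and the lowest macrophage sum, and values without it are given where the call or sign of a named gene changed.

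Between the groups, *LRP1* and *STAB1* rose, *SCARB1* fell, and *MSR1*, *CD36*, *OLR1* and *COLEC12* did not pass the test. Thus 2 of the 7 receptors rose, where 6.21% of all genes tested did, and 1 fell, where 8.86% did, 15.1% in all. The log2 fold change was positive for 6 of the 7, with a median of 1.28 beside 0.02 for all genes tested. All 5 Perthes rabbits lay above all controls for *LRP1* and below them for *SCARB1*, and the groups overlapped for the other 5 receptors. Over all genes tested, the groups did not overlap in 25.2%, 11.2% above and 13.9% below the controls. With calls limited to an adjusted p below 1e-05 and a log2 fold change past 2, edgeR called none of the 7 receptors and 0 of the 15305 genes, where DESeq2 called 200. Of the 15305 genes, 4883 had an unadjusted p below 0.05 in edgeR, and the smallest adjusted p was 0.0118. At an unadjusted p below 0.05, 4 of the 7 receptors passed, where 31.9% of all genes did. DESeq2 called the same 3 receptors, where it called 11.2% of all genes higher and 12.5% lower, 23.8% in all. Without Perthes rabbit 4, edgeR called 4 of the 7 higher, *CD36*, *STAB1*, *OLR1* and *LRP1*, and *SCARB1* lower, where it called 8.36% of all genes higher and 9.39% lower, 17.7% in all.

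**Figure D1:**
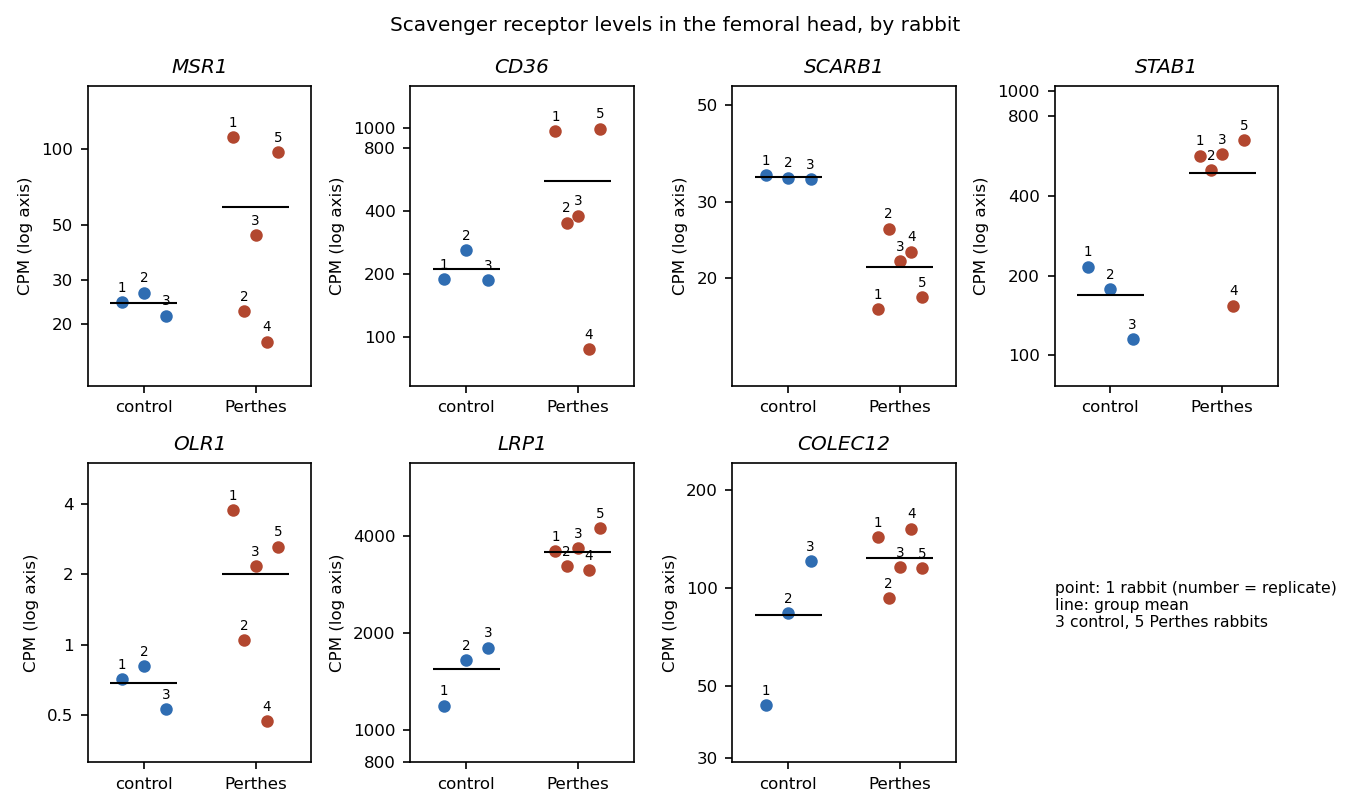
Level of each of the 7 receptors in CPM on a log axis, 1 panel per gene, with 1 numbered point per rabbit and a line at the mean of each group (5 Perthes, 3 control). For *LRP1* and *SCARB1* the points of the groups are apart, and for the others at least 1 Perthes rabbit lies among or below the controls.

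*MSR1* (gene ID 100009067), the class A macrophage scavenger receptor that takes up modified low-density lipoprotein, was at 112, 22.6, 45.3, 17 and 97.5 CPM in Perthes rabbits 1 to 5. The controls were at 24.5, 26.7 and 21.6 CPM. Perthes rabbits 1, 3 and 5 were above every control, rabbit 2 lay among them and rabbit 4 was the lowest of all 8. The mean was 58.8 ± 43.4 CPM (SD, n = 5) in Perthes and 24.3 ± 2.55 CPM (SD, n = 3) in control rabbits. At a log2 fold change of 1.28 (SE 0.61), *MSR1* did not pass the test (edgeR adjusted p = 0.182, exact permutation p = 0.321). The highest Perthes rabbit was 6.58-fold above the lowest, against 1.23-fold among the controls, so the spread within the Perthes group was larger than the difference between the groups.

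*COLEC12* (gene ID 100342125), a membrane collectin related to the class A receptors and found on endothelial and stromal cells, was at 143, 93.1, 116, 152 and 115 CPM in Perthes rabbits 1 to 5. The controls, at 43.6, 83.5 and 121 CPM, spread over 2.77-fold, more than the 1.63-fold of the Perthes group. Only Perthes rabbits 1 and 4 were above the highest control. The log2 fold change was 0.58 (SE 0.31) and did not pass the test (edgeR adjusted p = 0.233, exact permutation p = 0.143). It depended on the controls, at 0.28 without control 1 (adjusted p = 0.512) and 0.96 without control 3 (adjusted p = 0.0779). *COLEC12* was the one receptor for which Perthes rabbit 4 was the highest.

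*CD36* (gene ID 100008825), the class B receptor that takes up long-chain fatty acids and oxidized lipoprotein in macrophages, adipocytes, muscle and capillary endothelium, was at 967, 354, 381, 87.8 and 995 CPM in Perthes rabbits 1 to 5. The controls were at 190, 261 and 188 CPM. Perthes rabbits 1 and 5 stood together near the top, rabbits 2 and 3 lay above every control, and rabbit 4 was below every control. The mean was 557 ± 404 CPM (SD, n = 5) in Perthes and 213 ± 41.9 CPM (SD, n = 3) in control rabbits. The log2 fold change of 1.39 (SE 0.67) did not pass the test (edgeR adjusted p = 0.19, exact permutation p = 0.357). Within the Perthes group the highest rabbit was 11.3-fold above the lowest, the widest range of the 7 receptors. Without Perthes rabbit 4 the log2 fold change was 1.66 and *CD36* passed the test (adjusted p = 0.0356).

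*SCARB1* (gene ID 100009590), the class B receptor that takes cholesteryl ester from high-density lipoprotein and also binds apoptotic cells, was at 17, 26, 21.9, 23 and 18.1 CPM in Perthes rabbits 1 to 5. The controls were at 34.5, 34 and 33.7 CPM. The 3 controls were within 1.02-fold of each other, and each of the 5 Perthes rabbits was below them. *SCARB1* fell, with a mean of 34.1 ± 0.398 CPM (SD, n = 3) in control and 21.2 ± 3.68 CPM (SD, n = 5) in Perthes rabbits, a log2 fold change of -0.69 (SE 0.17, edgeR adjusted p = 0.0279) and an exact permutation p of 0.0357, the smallest possible. It was 1.61-fold lower in Perthes rabbits and was the only one of the 7 with a negative fold change. The call was lost, with a log2 fold change from -0.70 to -0.63, without Perthes rabbit 3 (adjusted p = 0.0624), Perthes rabbit 5 (0.0817), control 1 (0.0885), control 2 (0.0968) or control 3 (0.0589).

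*OLR1* (gene ID 100009322), the lectin-like receptor for oxidized low-density lipoprotein known from endothelium and activated macrophages, was low in every rabbit. Its levels were 3.75, 1.05, 2.17, 0.473 and 2.62 CPM in Perthes rabbits 1 to 5, from 111, 28, 59, 13 and 77 counts. The controls were at 0.715, 0.811 and 0.532 CPM, from 20, 23 and 16 counts. The 4 Perthes rabbits other than rabbit 4 were above every control, and rabbit 4 was the lowest of all. The log2 fold change of 1.55 (SE 0.62) did not pass the test (edgeR adjusted p = 0.122, exact permutation p = 0.179). Without Perthes rabbit 4 it was 1.80 and passed (adjusted p = 0.0326).

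*STAB1* (gene ID 100346795), a large receptor of sinusoidal endothelium and of tissue macrophages that clears SPARC, modified lipoprotein and dying cells, was at 567, 501, 574, 154 and 651 CPM in Perthes rabbits 1 to 5. The controls were at 216, 178 and 115 CPM. Perthes rabbits 1, 2, 3 and 5 were close to each other and above every control, and rabbit 4 lay among the controls. *STAB1* rose, with a mean of 170 ± 51 CPM (SD, n = 3) in control and 489 ± 195 CPM (SD, n = 5) in Perthes rabbits, a log2 fold change of 1.53 (SE 0.45), a fold of 2.88. The edgeR adjusted p of 0.04996 was at the threshold, and the exact permutation p was 0.107. Without Perthes rabbit 4 the log2 fold change was 1.76 (adjusted p = 0.00783). Leaving out any one of the other 7 rabbits ended the call, with adjusted p of 0.0804, 0.0656, 0.0997 and 0.1 without Perthes rabbits 1, 2, 3 and 5, and 0.106, 0.141 and 0.127 without controls 1, 2 and 3. DESeq2 gave an adjusted p of 0.00299.

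*LRP1* (gene ID 100009547), a large member of the low-density lipoprotein receptor family that takes up apolipoprotein E particles, protease complexes and matrix proteins in macrophages, fibroblasts, smooth muscle and other cells, was at 3595, 3229, 3670, 3136 and 4225 CPM in Perthes rabbits 1 to 5. The controls were at 1194, 1651 and 1803 CPM. The lowest Perthes rabbit was well above the highest control, and the Perthes rabbits were within 1.35-fold of each other. *LRP1* rose 2.3-fold, with a mean of 1549 ± 317 CPM (SD, n = 3) in control and 3571 ± 432 CPM (SD, n = 5) in Perthes rabbits, a log2 fold change of 1.20 (SE 0.24, edgeR adjusted p = 0.0165) with an exact permutation p of 0.0357, the smallest possible. The call was lost without control 1 (1.05, adjusted p = 0.0564) or control 2 (1.25, adjusted p = 0.0656). Without control 1, edgeR called 73 of 15632 genes higher and 184 lower. Without control 2, edgeR called 0 of 15594 genes, 3722 of which had an unadjusted p below 0.05.

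**Figure D2:**
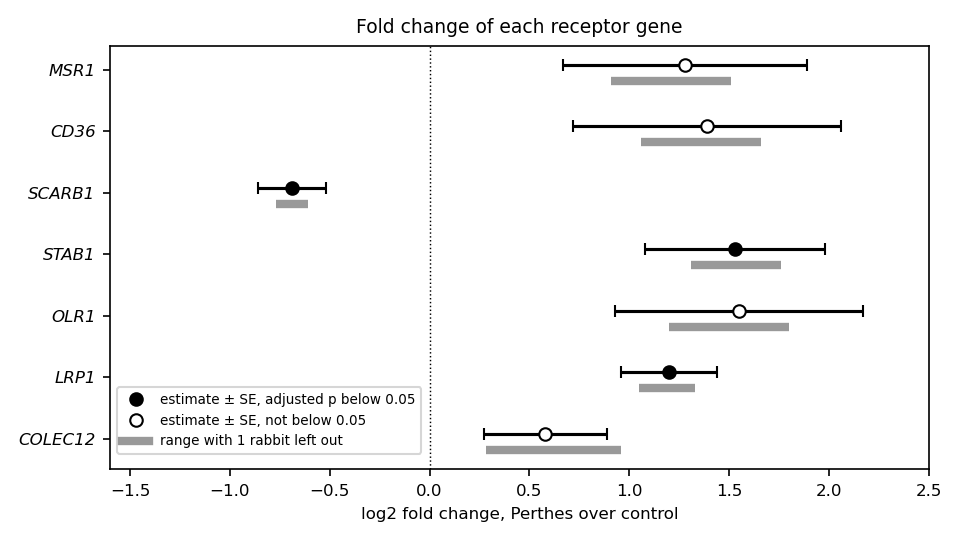
Log2 fold change, Perthes over control, of the 7 receptors with 1 standard error on each side, filled where the adjusted p was below 0.05, and a grey bar for the range with each rabbit left out in turn. The values run from -0.69 for *SCARB1* to 1.55 for *OLR1*, and the smallest standard errors are those of *SCARB1* (0.17) and *LRP1* (0.24).

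The receptors did not share 1 order among the Perthes rabbits. *MSR1* and *OLR1* had the same order, rabbits 1, 5, 3, 2 and 4 from high to low, and *CD36* differed from it only in that rabbit 5 was first. *STAB1* and *LRP1* both followed the order 5, 3, 1, 2 and 4. *SCARB1* ran 2, 4, 3, 5 and 1, and *COLEC12* ran 4, 1, 3, 5 and 2. The ratio of *MSR1* to *OLR1* within a library stayed within 1.94-fold over all 8 rabbits and that of *CD36* to *OLR1* within 2.16-fold, while that of *CD36* to *SCARB1* spread over 14.9-fold. Of the 21 ratios between pairs of receptors, which do not depend on how libraries are scaled, 2 were apart between the groups, both with *SCARB1*. That of *SCARB1* to *LRP1* had to be apart, since the groups were apart in opposite directions for these genes. The share of such ratios among other genes was not computed. The ratio of *SCARB1* to *LRP1* was 0.00428 to 0.00805 in Perthes and 0.0187 to 0.0289 in control rabbits, and that of *SCARB1* to *STAB1* was 0.0277 to 0.15 and 0.16 to 0.293.

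**Figure D3:**
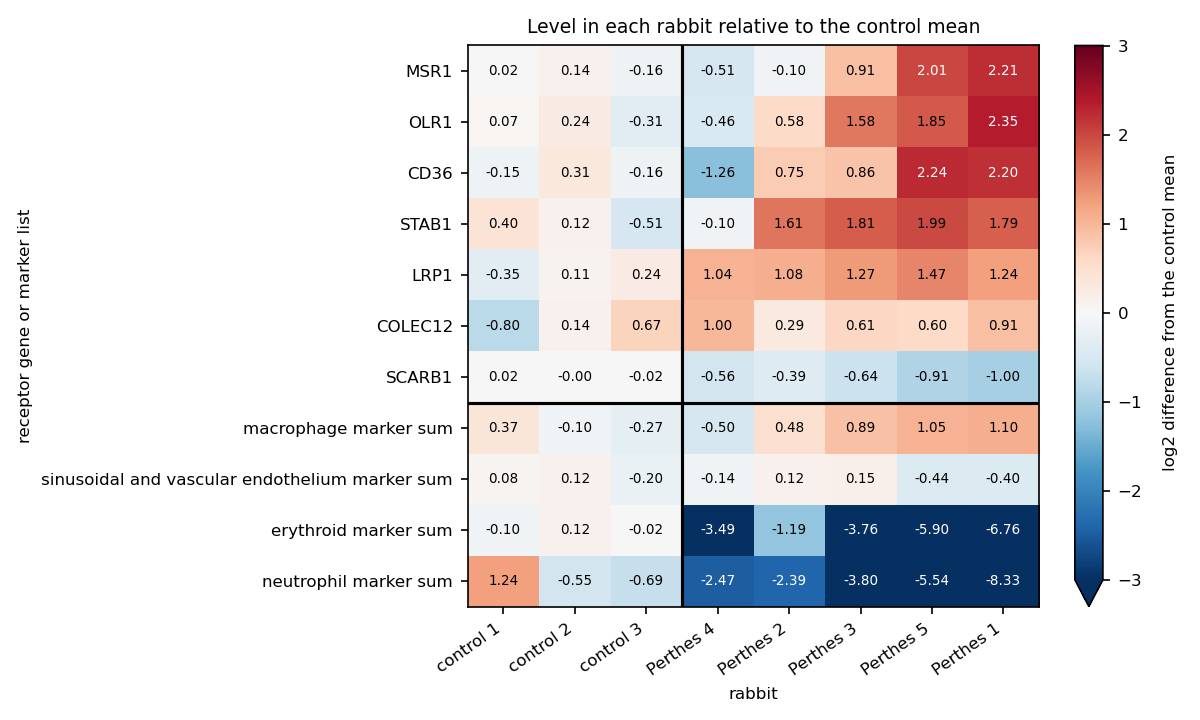
Log2 difference of each receptor in each of the 8 rabbits from its own mean in the 3 controls, as a colour scale with the value in each cell, genes in rows and rabbits in columns, and below the line the same for 4 sums of cell type markers. Perthes rabbit 4 is at or below the control mean for *MSR1*, *CD36*, *STAB1* and *OLR1* and above it for *LRP1* and *COLEC12*.

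These are values of whole tissue, in which more cells of a type and more RNA per cell cannot be told apart. Summed macrophage markers were 1067, 694, 921, 350 and 1030 CPM in Perthes rabbits 1 to 5 and 643, 464 and 411 CPM in the controls. Of the 7 macrophage markers in the table, *CD14* and *CSF1R* rose, *C1QC* fell, 4 did not pass the test and none was at 0. The order of the macrophage sum among the Perthes rabbits was that of *MSR1* and *OLR1*, a likeness seen only after the values were known, and its part in their levels was not tested. The macrophage sum holds *C1QC*, which was at 221, 163 and 129 CPM in the controls and 21.6 to 61.2 CPM in Perthes rabbits. *C1QC* was thus a larger part of the control sums than of the Perthes sums. Divided by the macrophage sum of the same library, *STAB1* was 0.531, 0.721, 0.623, 0.438 and 0.633 in Perthes rabbits 1 to 5. It was 0.336, 0.384 and 0.279 in the controls, so that with *C1QC* in the sum all 5, rabbit 4 included, were above the controls. With *C1QC* taken out of the sums, the *STAB1* ratio of Perthes rabbit 4 lay below those of controls 1 and 2, so that the groups overlapped. With *C1QC* in the sum, the same ratio of the other 6 receptors overlapped between the groups. The medians of this ratio, with *C1QC* in the sum, in Perthes and control rabbits were 0.0492 and 0.0525 for *MSR1*, 0.51 and 0.456 for *CD36*, 4.1 and 3.56 for *LRP1*, 0.00235 and 0.00129 for *OLR1*, 0.0238 and 0.0734 for *SCARB1*, and 0.134 and 0.18 for *COLEC12*. With *C1QC* taken out, the medians of *CD36* and *LRP1* were lower in Perthes than in control rabbits. The groups were then apart for *SCARB1*, lower in Perthes.

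Markers of the other cell types in which these receptors are known were measured beside them. Of 8 endothelial and 5 adipocyte markers, none passed the edgeR test, although 2 and 1 had an unadjusted p below 0.05 and DESeq2 called 2 and 1, and their sums overlapped between the groups. Those below 0.05 in edgeR were *VWF* (log2 fold change 1.59, unadjusted p = 0.0106), *LYVE1* (1.07, 0.0192) and the adipocyte marker *LIPE* (-1.25, 0.0116). The endothelial sum joins opposite signs, since 4 of its 8 markers had a positive log2 fold change and it holds *STAB2*, at -1.22. The endothelial sum was 309 to 465 CPM in Perthes and 365 to 454 CPM in control rabbits, and the adipocyte sum was 69.1 to 713 and 245 to 499 CPM. Among the Perthes rabbits the adipocyte sum and *CD36* were both lowest in rabbit 4, but their orders otherwise differed. The adipocyte sum was highest in rabbit 2, where *CD36* ranked 4 of 5, and ranked 4 of 5 in rabbit 5, where *CD36* was highest. Of 7 stromal markers *COL3A1* rose and 6 did not pass the test, with sums of 111771 to 255620 CPM in Perthes and 120721 to 157496 CPM in control rabbits. Erythroid markers summed to 27.3, 1298, 219, 265 and 49.6 CPM in Perthes rabbits 1 to 5 and to 2756, 3222 and 2930 CPM in the controls, and 1 of the 5 passed the test, lower in Perthes. Their order among the Perthes rabbits was that of *SCARB1*, as was that of the neutrophil sum, 17.8 to 1092 CPM in Perthes and 3561 to 13533 CPM in control rabbits, of whose 5 markers 2 fell. The B cell sum had the same order, and the megakaryocyte sum differed only in that rabbit 3 was above rabbit 4. Osteoclast markers summed to 2735, 3015, 2968, 1483 and 4244 CPM in Perthes rabbits 1 to 5 and to 713, 1238 and 1191 CPM in the controls, so that the groups did not overlap. Most of each sum was *CTSK*, at 2546, 2350, 2280, 991 and 3773 CPM in Perthes rabbits 1 to 5 and 404, 783 and 831 CPM in the controls. Of the 5 markers *CTSK* and *DCSTAMP* rose, and the groups overlapped for *ACP5*, *CALCR* and *OSCAR*. As for *LRP1* and *STAB1*, the sum was highest in Perthes rabbit 5 and lowest in rabbit 4 of that group, and its part in their levels was not tested. Of the other lists, 2 of 4 megakaryocyte and 1 of 4 B cell markers fell, and none of 5 osteoblast and 5 chondrocyte markers passed the edgeR test, although 1 and 2 had an unadjusted p below 0.05 and DESeq2 called 1 and 0. The part of the erythroid, neutrophil, B cell and megakaryocyte markers in the lower *SCARB1* level was not tested.

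The genes whose profiles over the 8 libraries were nearest to each receptor were found by the root mean square difference of log2 CPM, each gene centred on its own mean. For *CD36* the nearest was *FABP4*, a fatty acid carrier of adipocytes and macrophages, at 0.25, followed by *HAVCR1* at 0.36. *FABP4* was the only 1 of the 5 adipocyte markers with a positive log2 fold change (1.03, edgeR adjusted p = 0.321). For *OLR1* the nearest genes were *MARCHF1* at 0.13 and *AIF1*, a macrophage protein, at 0.23. For *MSR1* they were *GPD2* at 0.31, *MARCHF1* at 0.34 and *LGALS1* at 0.34. For *STAB1* they were *OSTM1* at 0.12, *CTSA*, a lysosomal protease, at 0.16 and *SLC15A3*, a lysosomal transporter, at 0.16. *LRP1* was nearest to *MMP2*, a matrix metalloproteinase, at 0.10, *SCARB1* to *LGALSL* at 0.06 and *COLEC12* to *GFPT1* at 0.06. These distances describe 12303 genes over 8 libraries that share 1 group difference, and genes that vary little have small distances. Among the receptors themselves the nearest pairs were *MSR1* and *OLR1* at 0.31, *CD36* and *OLR1* at 0.40, *MSR1* and *CD36* at 0.42, and *LRP1* and *COLEC12* at 0.42, and *SCARB1* was at 0.83 or more from every other.

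Of 13 other scavenger receptors tested, 6 rose, 1 fell and 6 did not pass the test, beside 6.21% and 8.86% of all genes, with a median log2 fold change of 0.93. Without control 1 or control 2, 0 rose and 0 fell, and 3, 2 and 2 rose without Perthes rabbits 1, 3 and 5. *SSC5D*, a secreted protein with scavenger receptor cysteine-rich domains, rose from 2.57 ± 2.55 to 13.2 ± 3.73 CPM (SD, n = 3 and 5, log2 fold change 2.36, edgeR adjusted p = 0.0306). *CXCL16*, a membrane chemokine that also binds oxidized lipoprotein, rose from 5.65 ± 1.65 to 25.9 ± 11.0 CPM (log2 fold change 2.20, edgeR adjusted p = 0.015). The macrophage lysosomal protein *CD68* rose by 2.02 and the mannose receptor *MRC1* by 1.96 on the log2 scale (edgeR adjusted p = 0.0165 and 0.0454). *MRC1* lost its call without any one of Perthes rabbits 1, 3 and 5 or of the 3 controls (adjusted p from 0.0692 to 0.14) and with library totals alone (0.0576), *SSC5D* without Perthes rabbits 1, 3 or 5 or controls 1 or 2 (0.0516 to 0.104), and *CXCL16* and *CD68* without control 1 or 2 (0.0514 to 0.0717). The gene that fell, named here because it was the single one, was *AGER*, the receptor for advanced glycation end products, at -0.94 (edgeR adjusted p = 0.015). *SCARB2*, the lysosomal relative of *CD36* and *SCARB1*, had a log2 fold change of 0.93 and did not pass the test (edgeR adjusted p = 0.0644), but passed without Perthes rabbit 4 (1.07, adjusted p = 0.0269) and in DESeq2 (adjusted p = 0.0145).

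*STAB2*, the close relative of *STAB1* on sinusoidal endothelium and a clearance receptor for hyaluronan, had the opposite sign. It was at 98.6 ± 32 CPM in control and 42.2 ± 43.7 CPM in Perthes rabbits, a log2 fold change of -1.22 (SE 0.78) that did not pass the test (edgeR adjusted p = 0.311). The ratio of *STAB1* to *STAB2*, computed after their values were seen, was 30.5, 4.53, 9.35, 24.8 and 45.2 in Perthes rabbits 1 to 5 and 2.4, 1.33 and 1.6 in the controls. All 5 Perthes rabbits, rabbit 4 included, had a higher ratio than every control, while the groups overlapped for each gene alone. A ratio of genes already seen with opposite signs is prone to be apart, and the share of such ratios among other genes was not computed.

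In the family of *LRP1*, the low-density lipoprotein receptors, 2 of 12 rose, none fell and 10 did not pass the test. So 16.7% were called, beside 15.1% of all genes (6.21% higher), and the family had a median log2 fold change of 0.15. None rose without Perthes rabbit 5, control 1 or control 2, and 1 rose without Perthes rabbit 1, 3 or 4, or with library totals alone or no filter. *VLDLR*, which binds triglyceride-rich particles and reelin, rose from 26.6 ± 12 to 74.2 ± 13.6 CPM (log2 fold change 1.48, edgeR adjusted p = 0.0216). *LRP12* rose from 25.9 ± 7.88 to 44.1 ± 6.08 CPM (log2 fold change 0.77, edgeR adjusted p = 0.0484), and kept its call only when Perthes rabbit 2 or control 3 was the rabbit left out, with 0.72 and an adjusted p of 0.0682 without Perthes rabbit 4. *SORL1*, a sorting receptor, had a log2 fold change of -1.21 with an adjusted p of 0.0516 in edgeR and 0.0105 in DESeq2. It was at 534, 230 and 173 CPM in controls 1 to 3, and at -0.57 without control 1 (edgeR adjusted p = 0.211). It passed without control 3 (-1.50, 0.0318), with library totals alone (0.0362) and with at least 10 counts in every library (0.0458). *LRP4*, which binds sclerostin, had a log2 fold change of 0.08 with an adjusted p of 0.869 (edgeR), which became -0.03 with library totals alone.

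Among ligands and partners of the receptors, 5 of 12 tested rose, none fell and 7 did not pass the test. This was 41.7% called, beside 15.1% of all genes (6.21% higher), with a median log2 fold change of 0.79. The count that rose was 3 without Perthes rabbit 3, Perthes rabbit 5 or control 3, 1 without control 1 and 0 without control 2. *PLAU*, the urokinase whose inhibitor complexes *LRP1* clears, rose from 23.2 ± 3.99 to 141 ± 57 CPM (log2 fold change 2.60, edgeR adjusted p = 0.0118). *APOE*, the apolipoprotein ligand of *LRP1* and its family, rose from 26 ± 13.6 to 131 ± 59.1 CPM (log2 fold change 2.33, edgeR adjusted p = 0.0254). The phospholipid transfer protein *PLTP* rose by 2.41 and *APOB* by 1.72 on the log2 scale (edgeR adjusted p = 0.0142 and 0.0192). *PLAU* lost its call only without control 2 (adjusted p = 0.0519), *PLTP* and *APOB* without control 1 or 2 (0.0623 to 0.0808), and *APOE* without Perthes rabbits 3 or 5 or any control (0.0521 to 0.105). *SPARC*, the matrix protein cleared by *STAB1*, was at 18550 ± 3714 CPM in Perthes and 16994 ± 5307 CPM in control rabbits (log2 fold change 0.13, edgeR adjusted p = 0.82), and *THBS1*, the thrombospondin that binds *CD36*, had a log2 fold change of 0.62 (edgeR adjusted p = 0.229).

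Of 15 genes that act in the engulfment of dead cells, 3 rose, none fell and 12 did not pass the test. The 20% called stood beside 15.1% of all genes (6.21% higher), and the list had a median log2 fold change of 0.29. None rose without control 1 or control 2, and 1 rose without Perthes rabbit 5. *MERTK*, a receptor kinase for dying cells, rose from 27.3 ± 0.352 to 83.8 ± 29.3 CPM (log2 fold change 1.62, edgeR adjusted p = 0.0163). The integrin subunits *ITGAV* and *ITGB5*, which form a receptor that works with *CD36* in engulfment, rose by 1.05 and 0.89 on the log2 scale (edgeR adjusted p = 0.0313 and 0.0188). All 3 lost their calls without control 1 or 2 (adjusted p from 0.0657 to 0.0969), where 73 and 0 of all genes rose. The integrin subunits also lost theirs without Perthes rabbit 5 (0.0747 and 0.0519), and *ITGAV* without Perthes rabbit 3 (0.0579). *MFGE8*, the bridge between dying cells and that integrin, was at 0.70 (adjusted p = 0.287) and *SIRPA*, which receives the signal against engulfment, at 0.89 (adjusted p = 0.0968), and neither passed the edgeR test. Without Perthes rabbit 4 *MFGE8* was at 0.25 (adjusted p = 0.469) and *SIRPA* at 1.07 and passed (adjusted p = 0.019), as it did in DESeq2 (adjusted p = 0.0328).

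Of 15 genes for the storage, breakdown and efflux of lipid, 8 rose, 1 fell and 6 did not pass the test. This was 60% called and 53.3% higher, beside 15.1% and 6.21% of all genes, with a median log2 fold change of 1.17. The count that rose was 4 without Perthes rabbit 3, 3 without Perthes rabbit 5, 5 without control 3 and 0 without control 1 or control 2. *FABP5*, a fatty acid carrier, rose from 21.2 ± 3.77 to 159 ± 87.6 CPM (log2 fold change 2.91, edgeR adjusted p = 0.0151). *LIPA*, the lysosomal lipase that frees cholesterol from engulfed lipid, rose from 82.5 ± 2.62 to 524 ± 307 CPM (log2 fold change 2.67, edgeR adjusted p = 0.0262). *PLIN2*, the coat of lipid droplets, rose from 46.3 ± 5.71 to 266 ± 137 CPM (log2 fold change 2.52, edgeR adjusted p = 0.0144), and *FABP3* rose by 2.08 on the log2 scale (edgeR adjusted p = 0.0344). *FABP5* and *PLIN2* lost their calls without control 1 or 2 (adjusted p from 0.059 to 0.0695), *LIPA* without Perthes rabbits 3 or 5 or any control (0.0563 to 0.101), and *FABP3* without Perthes rabbits 1, 3 or 5 or controls 1 or 2 (0.0589 to 0.126). The gene that fell, again named because it was the single one, was *NCEH1*, a neutral cholesteryl ester hydrolase, from 64.6 ± 3.43 to 28.4 ± 5.84 CPM (log2 fold change -1.19, edgeR adjusted p = 0.0118). Without control 2, or with the replicate number as a block, 0 genes of the list fell. *LPL*, the lipoprotein lipase, had a log2 fold change of 0.36 (adjusted p = 0.773) and *DGAT2*, which makes triglyceride, one of -2.28 with wide spread (adjusted p = 0.101), and neither passed the edgeR test. *DGAT2* passed in DESeq2 (adjusted p = 0.0194) and without Perthes rabbit 2 (-3.27, adjusted p = 0.0135).

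Of 9 transcription factors known to control such genes, 2 rose, none fell and 7 did not pass the test. This was 22.2% called, beside 15.1% of all genes (6.21% higher), with a median log2 fold change of 0.15. *MITF*, a factor of osteoclasts and lysosomal genes, rose by 2.05 and *CEBPB* by 1.35 on the log2 scale (edgeR adjusted p = 0.0363 and 0.0202). *MITF* kept its call only when Perthes rabbit 2 or 4 was the rabbit left out (adjusted p from 0.0556 to 0.134 otherwise), and *CEBPB* lost it without Perthes rabbit 3, control 2 or control 3 (0.0509 to 0.0837). *NFE2L2*, which responds to oxidative stress, was at 0.16 (adjusted p = 0.639) and *CEBPA* at -0.12 (adjusted p = 0.879, and 0.12 without Perthes rabbit 4), and neither passed the edgeR test. In the annotation of the authors' table, the phagosome term holds 5 of the 7 receptors, *MSR1*, *COLEC12*, *CD36*, *SCARB1* and *OLR1*. Of its 146 tested genes 25 rose and 11 fell, 17.1% higher beside 6.21% of all genes, with a median log2 fold change of 0.39. The cholesterol metabolism term holds *CD36*, *SCARB1* and *LRP1*. Of its 32 tested genes 8 rose and 3 fell, 34.4% called beside 15.1% of all genes, with a median of 0.33. The PPAR signaling term, with *CD36* and *OLR1*, had 8 of 63 higher and 1 lower, 14.3% called beside 15.1% of all genes. The fat digestion term had 3 of 19 higher and 2 lower, and the malaria term 5 of 41 higher and 5 lower. These were 26.3% and 24.4% called, beside 15.1% of all genes. All 5 terms were picked after the values were seen.

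**Figure D4:**
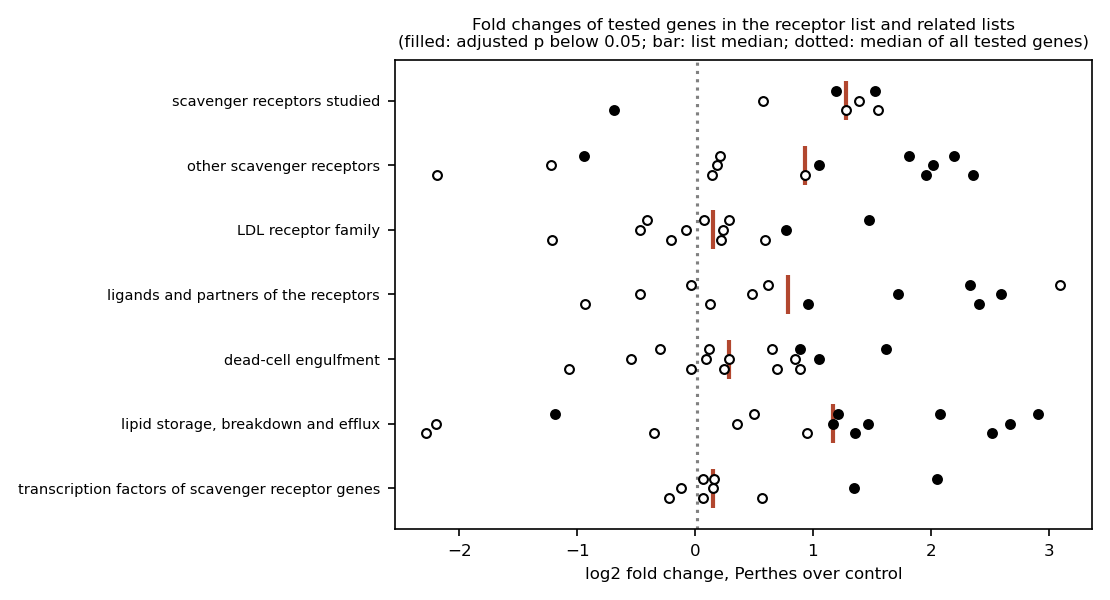
Log2 fold change, Perthes over control, of every tested gene of the 7 receptors and of the 6 lists of related genes, 1 point per gene, filled where the adjusted p was below 0.05, with a bar at the median of each list and a dotted line at that of all genes tested. The medians are highest for the 7 receptors (1.28) and for lipid storage, breakdown and efflux (1.17) and lowest for the low-density lipoprotein receptor family and the transcription factors (0.15 each).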

How the data were processed

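Femoral head total RNA of 5 Perthes and 3 control rabbits was analysed. The authors filtered reads with SOAPnuke, mapped them with HISAT2 2.0.4 and deposited expected counts per gene made with RSEM 1.1.17 and HTSeq 1.99.2 (per the labels and methods), without normalization. Up to 10.7% of a library's values were not whole and were rounded. Another 8 columns of per-sample values, copies of the 8 used, and the small RNA data were left out. Control 3 is the library coded 3, although its title has another replicate number.

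The receptors and all lists were chosen with earlier results of these data known. Of 169 list genes 149 were in the table, 3 of them matched by gene ID, and 1 further gene is not reported here. Counts were scaled by TMM, filtered by filterByExpr and tested with the quasi-likelihood F-test of edgeR 4.0.16 in R 4.3.3. The SE is the log2 fold change divided by the square root of F. Log2 CPM used a prior count of 2. Permutation tests ran in Python 3.11.15. Scripts were tested on simulated counts. Named list genes were, per list, up to 4 called with the largest change and up to 2 not called with the highest mean CPM. Alternatives were DESeq2 1.42.0, its size factors, library totals alone, no filter, at least 10 counts in every library, a block for the replicate number, and leaving out each rabbit.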

Additional observations from a re-analysis of the deposited data

Results flagged for a closer look

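Dixon's test was applied to the 5 Perthes rabbits for the 7 receptors and the 31 list genes named above, 38 genes in all, and about 1 in 20 groups exceeds its critical value of 0.71 by chance. Of the receptors none exceeded it, and the gap of Perthes rabbit 4 to the others was 0.70 of the range for *STAB1*. The 2 that exceeded it were list genes. *THBS1* was at 2761 CPM in Perthes rabbit 1, and the nearest other rabbit was at 1615 CPM, a gap of 0.72 of the range. *MFGE8* was at 2024 CPM in Perthes rabbit 4, the nearest at 858 CPM, a gap of 0.82.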

How the results depend on the processing

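With DESeq2, its size factors, or at least 10 counts in every library, *LRP1*, *STAB1* and *SCARB1* were called in the same direction and no other receptor was. With library totals alone or no filter 1 receptor rose, *LRP1*, and *STAB1* did not pass (1.45, adjusted p = 0.0621, and 1.54, adjusted p = 0.0532). Over all genes tested, edgeR called 951 higher and 1356 lower, DESeq2 called 1720 higher, and library totals alone gave 678 higher and 1705 lower. With the replicate number as a block, 0 receptors rose and 0 fell, as did 0 and 0 of all genes, with *LRP1* at 1.19 (adjusted p = 0.135), *STAB1* at 1.73 (0.115), *SCARB1* at -0.68 (0.209) and *CEBPA* at 0.15. In that fit 3152 of the 15305 genes, 5 of the 7 receptors among them, had an unadjusted p below 0.05. Whether the numbers pair the rabbits is not given in the labels. Same-numbered rabbits of the groups deviated with correlations of -0.317, 0.161 and -0.238. Differently numbered ones had -0.314 to 0.435, so these few values cannot decide it. *LRP4* was at -0.03 with library totals alone.

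With each rabbit left out, 0 to 4 receptors rose and 0 to 1 fell, and 0 to 1267 and 0 to 1628 of all genes. Of all genes, 73 rose and 184 fell without control 1, 385 and 646 without Perthes rabbit 3, and 351 and 550 without Perthes rabbit 5. The log2 fold change ranged from 0.91 to 1.51 for *MSR1*, 1.06 to 1.66 for *CD36*, -0.77 to -0.61 for *SCARB1*, 1.31 to 1.76 for *STAB1*, 1.20 to 1.80 for *OLR1*, 1.05 to 1.33 for *LRP1* and 0.28 to 0.96 for *COLEC12*. It ranged from -0.10 to 0.31 for *LRP4*, -0.10 to 0.34 for *SPARC*, -0.00 to 0.23 for *NFE2L2* and -0.37 to 0.25 for *CEBPA*. Where a call was lost, the cause was not tested.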
